A study of Mus musculus with 4 samples.

Results

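A set of 9 adhesion genes of blood progenitors was followed, out of 12417 genes kept from 4 RNA-seq libraries. They are the integrin alpha subunits Itga4, Itga5, Itga6 and Itgal, the beta subunits Itgb1, Itgb2 and Itgb7, the selectin ligand Selplg (PSGL-1) and the hyaluronan receptor Cd44. They were chosen by symbol for their part in holding progenitors in the marrow. No rule on their values was used, although earlier results of these data were known. All 9 had a row in WT HSC, WT CLP and GRK6-/- CLP, and 8 of 9 had a row in GRK6-/- HSC. A missing row was counted as 0 in ratios, and its reason is not given.

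The study compared bone marrow HSC, the Lin-c-kit+sca-1+ gate, with CLP, for which Il-7Ra+ was added to that gate, in wild-type (WT) mice and mice carrying a GRK6 knockout (GRK6-/-). GRK6 is a kinase that desensitizes G protein-coupled receptors such as CXCR4. All animals were on a C57BL/6 background, and mice in the study were 8 to 12 weeks old unless stated otherwise. For each library, cDNA of 13 to 15 cells from 3 to 4 mice was pooled after amplification cell by cell (20 PCR cycles, then 10 more). There was 1 library per group and therefore no replicates, so no difference below has a replicate check. Variation between cells or mice cannot be estimated. The limma p-values rest on 1 residual degree of freedom and on variance borrowed from other genes (7.43 prior degrees of freedom). The HSC gate holds multipotent progenitors as well as stem cells. In such pools, fewer cells that express a gene and less RNA per cell cannot be told apart.

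Integrins are receptors made of 1 alpha and 1 beta chain that bind matrix and cell surface ligands once the talin and kindlin proteins attach to the beta tail. Alpha 4 pairs with beta 1 (VLA-4) or beta 7 to bind VCAM-1 or MAdCAM-1, alpha 5 and alpha 6 pair with beta 1 to bind fibronectin and laminin, and alpha L pairs with beta 2 (LFA-1) to bind ICAMs. PSGL-1, once sialylated and fucosylated, binds selectins, and CD44 binds hyaluronan, and both take part in the rolling and lodging of progenitors in marrow vessels.

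The promoters of Itga4, Itgb1 and Itgb7 are shown because Itgb7 and Itgb1 had the widest ranges of the 8 genes with a row in all libraries and encode the chains that pair with alpha 4. Of the 9 genes, 5 had a window in the RefSeq table (GRCm38.p6, from 250 bases before to 50 bases after the start), which were Itga4, Itga5, Itgb1, Itgb7 and Cd44. The windows lie at chr2:79255176-79255475 on the plus strand for Itga4, chr8:128685404-128685703 on the plus strand for Itgb1 and chr15:102231886-102232185 on the minus strand for Itgb7. Capitals mark the GC box GGGCGG and the ETS core CCGGAA, read on both strands.
Itga4: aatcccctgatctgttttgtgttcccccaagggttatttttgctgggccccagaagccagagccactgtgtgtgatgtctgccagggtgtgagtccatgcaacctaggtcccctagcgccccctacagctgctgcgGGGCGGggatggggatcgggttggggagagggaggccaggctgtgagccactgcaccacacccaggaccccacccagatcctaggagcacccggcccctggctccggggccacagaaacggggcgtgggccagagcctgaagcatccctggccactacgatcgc
Itgb1: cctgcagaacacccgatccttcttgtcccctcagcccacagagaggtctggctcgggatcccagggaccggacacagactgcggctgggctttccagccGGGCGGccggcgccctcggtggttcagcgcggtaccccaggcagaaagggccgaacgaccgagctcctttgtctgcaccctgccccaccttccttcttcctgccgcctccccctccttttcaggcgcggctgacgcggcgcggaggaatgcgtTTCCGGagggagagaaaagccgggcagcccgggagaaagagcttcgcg
Itgb7: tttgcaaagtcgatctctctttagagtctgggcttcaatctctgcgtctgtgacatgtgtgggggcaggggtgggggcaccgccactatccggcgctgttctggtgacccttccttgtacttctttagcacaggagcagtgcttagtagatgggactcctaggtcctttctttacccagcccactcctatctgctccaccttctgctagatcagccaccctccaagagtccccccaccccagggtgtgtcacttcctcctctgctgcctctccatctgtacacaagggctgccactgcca
Itgb1 had 1 GC box, 1 ETS core and 27 CpG dinucleotides, and Itga4 had 1 GC box and 10 CpG. Itgb7 had neither motif and 5 CpG. A GC box was found in 35.7% and the ETS core in 14.9% of all 32851 windows, whose median was 7 CpG. No window of the 5 held the TATA box letters TATAAA, which 13.6% of all windows held. These are matches of letters, not sites.

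Before the results, the labels were checked against marker genes. Il7r, the receptor used for the CLP gate, had no row in WT HSC and 1.08 FPKM (fragments scaled by transcript length and by mapped fragments) in GRK6-/- HSC, against 120 (WT) and 75.1 (GRK6-/-) in CLP. Sca-1 could not be checked, since Ly6a was named only in a joint row. Summed markers of HSC and their gate did not separate the populations. They gave 380 (WT) and 565 (GRK6-/-) FPKM in HSC, and 415 (WT) and 560 (GRK6-/-) in CLP. Early lymphoid markers, Il7r among them, summed to 174 (WT) and 121 (GRK6-/-) FPKM in HSC, and 2731 (WT) and 1992 (GRK6-/-) in CLP. Of these, Notch1 had no row in WT CLP and Rag2 none in GRK6-/- CLP. Grk6 went against the genotype labels, at 42.7 (WT) and 89.4 (GRK6-/-) FPKM in HSC, and 26.9 (WT) and 57.6 (GRK6-/-) in CLP. A gene has a single value here, so fragments outside the deleted part of Grk6 are counted too and the value does not check the knockout. GRK6-/- therefore stands throughout for the library so labelled. Granule genes of the myeloid lineage summed to between 7855 and 17848 FPKM in the 4 libraries, with 7 to 8 of 10 markers listed, although cells were sorted as lineage negative. Stromal and endothelial markers summed to at most 2.79 FPKM. The values were scaled to about 2790000 to 4360000 fragments per library, as estimated from the lowest values. The estimate is below the number of reads that the paper reports for each lineage, and the reason was not tested.

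Selplg was the highest of the 9 genes in every library, and Cd44 the next. Selplg stood between the 85.3 and 94.9 percentile of genes with a row and Cd44 between the 77.9 and 89.5 percentile. Below them the order changed from library to library. Next came Itgb1 in both HSC libraries and Itgb2 in both CLP libraries, although in GRK6-/- CLP the counting intervals of Itgb2, Itgb7, Itgal, Itgb1 and Itga5 overlapped, as did those of Cd44 and Itgb1 in WT HSC. Itga6 was the lowest gene with a row in each library, at the 15.5 percentile in WT HSC.

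**Figure D1:**
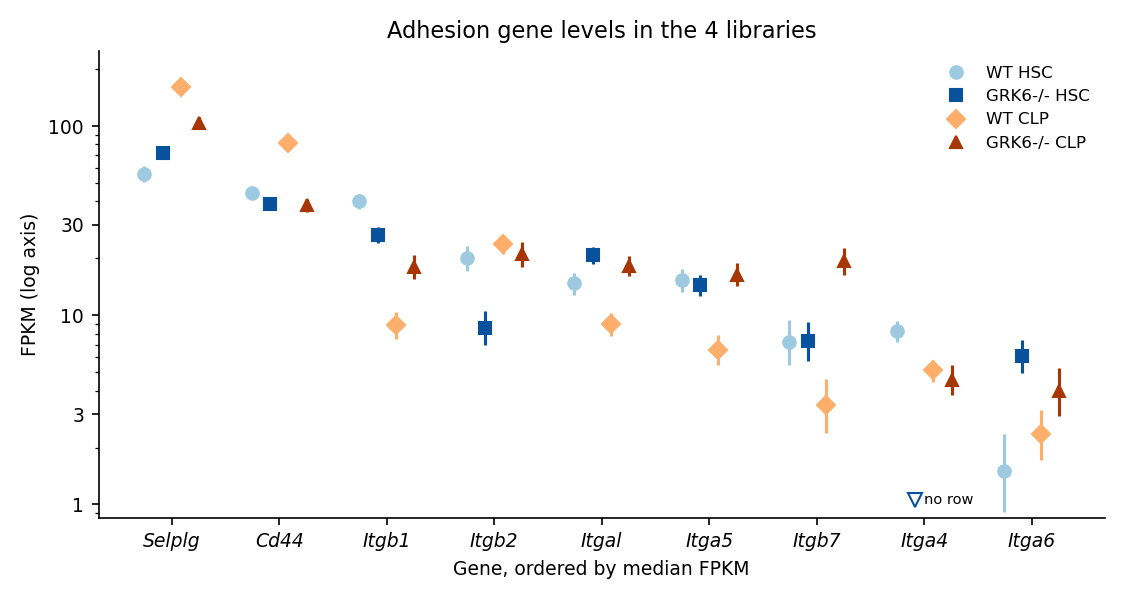
FPKM of the 9 genes (log axis) in the 4 libraries, 1 point per library, with lines for 95% exact Poisson intervals of the estimated fragments, which cover counting error only. Selplg reached 161 FPKM in WT CLP, and Itga4 had no row in GRK6-/- HSC (open triangle, not placed by value).

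Over the 8 genes with a row in all libraries, the highest value was a median of 2.83 times the lowest. The same median was 3.90 over 8207 genes with a row in all libraries and an FPKM of at least 1 in any. Itgb7 varied most among the 8, with 5.75 times, and Cd44 least, with 2.15 times.

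Among the alpha chains, Itga4 (Entrez Gene 16401, chr2:79095583-79173280 in mm9, plus strand) was listed at 8.25 FPKM in WT HSC and had no row in GRK6-/- HSC. In CLP it was listed at 5.11 (WT) and 4.56 (GRK6-/-). The CLP libraries differed by less than the counting intervals of these values (4.46 to 5.84 and 3.80 to 5.43). No fold can be given for HSC, where 1 value is missing. Of the 5766 genes at or above 8.25 FPKM in WT HSC, 111 or 1.93% had no row in GRK6-/- HSC. Genes that most cells use were among those without a row, such as Rps27, a ribosomal protein gene with at least 60 FPKM in each of the other 3 libraries, so a missing row does not show that a transcript was absent.

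The Itga4 value was further limited by a neighbour. In the mm9 annotation (GENCODE vM1) the last exon of Itga4, of 6595 bp, overlaps the 3′ end of Cerkl, a ceramide kinase-like gene on the other strand. The genes share 1124 exonic bases, or 11.4% of the longest Itga4 transcript of 9830 bp. Cerkl had 50.3 (WT) and 55.5 (GRK6-/-) FPKM in HSC, and 63.3 (WT) and 129 (GRK6-/-) in CLP, above Itga4 in every library. The protocol primes at the poly(A) tail and is not stated to keep strand, so reads of the shared bases cannot be assigned to 1 of the genes from these files. Cerkl rows began within the last exon of Itga4 in all 4 libraries, between positions 79170710 and 79171319.

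**Figure D2:**
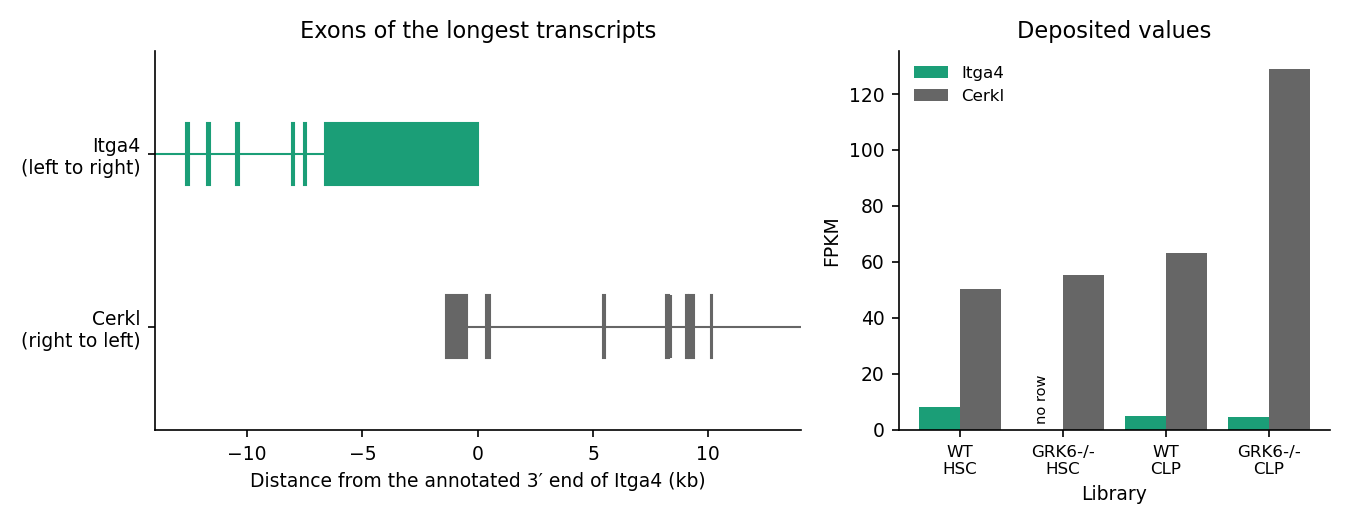
Left, exons (boxes) of the longest Itga4 and Cerkl transcripts by distance in kb from the annotated 3′ end of Itga4; right, FPKM of both genes in the 4 libraries. The last exon of Itga4 and the 3′ end of Cerkl overlap, and Cerkl lies above Itga4 in all 4 libraries.

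Itga5 (Entrez Gene 16402, chr15:103174720-103197194, minus strand) had 15.3 (WT) and 14.5 (GRK6-/-) FPKM in HSC, and 6.59 (WT) and 16.4 (GRK6-/-) in CLP. WT CLP was low and the counting intervals of the other 3 libraries overlapped. Itga5 was 2.49-fold higher in GRK6-/- CLP than in WT CLP (95% counting interval 1.97 to 3.13, exact binomial).

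Itga6 (Entrez Gene 16403, chr2:71583673-71696473, plus strand), the alpha chain of laminin receptors, had 1.51 (WT) and 6.05 (GRK6-/-) FPKM in HSC, and 2.36 (WT) and 3.97 (GRK6-/-) in CLP. The lowest of these rests on about 19 fragments. GRK6-/- HSC was 4.01-fold higher than WT HSC (counting interval 2.42 to 6.89), and GRK6-/- CLP was 1.68-fold higher than WT CLP (1.11 to 2.63).

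Itgal (Entrez Gene 16408, chr7:134439774-134478651, plus strand) had 14.7 (WT) and 20.7 (GRK6-/-) FPKM in HSC, and 9.001 (WT) and 18.2 (GRK6-/-) in CLP. It was higher in the knockout library of both populations, by 1.41-fold in HSC (counting interval 1.19 to 1.66) and 2.03-fold in CLP (1.68 to 2.44). Itga6 and Itgal were the members above WT in both populations by more than counting error, which leaves out amplification. The share of all genes above WT in both was not counted, so this is not a result about the members.

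Of the beta chains, Itgb1 (Entrez Gene 16412, chr8:131209554-131257100, plus strand), which pairs with many alpha chains, had 40.0 (WT) and 26.6 (GRK6-/-) FPKM in HSC, and 8.87 (WT) and 17.98 (GRK6-/-) in CLP. Both HSC libraries lay above both CLP libraries. WT HSC was 4.51-fold above WT CLP (counting interval 3.75 to 5.49), and GRK6-/- HSC was 1.48-fold above GRK6-/- CLP (1.24 to 1.77).

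Itgb2 (Entrez Gene 16414, chr10:76992997-77028453, plus strand), the chain shared by leukocyte integrins, had 20.0 (WT) and 8.59 (GRK6-/-) FPKM in HSC, and 23.7 (WT) and 21.1 (GRK6-/-) in CLP. GRK6-/- HSC stood apart at the low end, 2.32-fold below WT HSC (counting interval 1.81 to 3.03). The sum of myeloid markers was also lower there, at 17848 (WT) and 11341 (GRK6-/-) FPKM in HSC. Of 8 such markers, 3 were at least 2-fold lower (18.0% of all genes were) and 5 were within 2-fold. S100a8 had 1706 (WT) and 106 (GRK6-/-) FPKM in HSC, while Lyz2 went the other way, with 89.5 (WT) and 125 (GRK6-/-). In CLP the myeloid sums were 9385 (WT) and 7855 (GRK6-/-) FPKM. The part of these markers in the Itgb2 value was not tested. The CLP libraries differed by 1.13-fold, within the counting interval (0.929 to 1.36).

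Itgb7 (Entrez Gene 16421, chr15:102046426-102062366, minus strand), a chain of gut-homing lymphocyte integrins, had 7.25 (WT) and 7.33 (GRK6-/-) FPKM in HSC, and 3.37 (WT) and 19.4 (GRK6-/-) in CLP. GRK6-/- CLP was the high library, 5.75-fold above WT CLP (counting interval 4.06 to 8.50). The HSC libraries differed by 1.01-fold (0.714 to 1.47).

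The make-up of the beta chains therefore differed between libraries. Itgb1 gave 59.5% (WT) and 62.5% (GRK6-/-) of the summed FPKM of Itgb1, Itgb2 and Itgb7 in HSC. In WT CLP Itgb2 led with 66.0% and Itgb1 gave 24.6%. In GRK6-/- CLP the chains were nearly level, at 30.8% for Itgb1, 36.1% for Itgb2 and 33.2% for Itgb7.

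**Figure D3:**
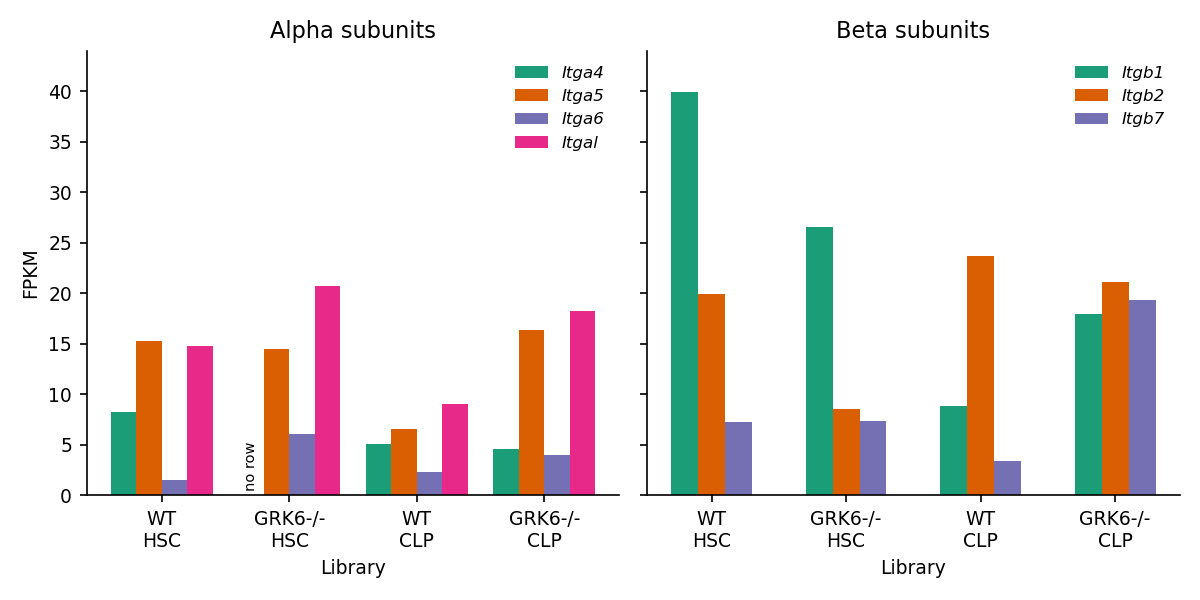
FPKM (bars from 0) of the 4 alpha subunits and the 3 beta subunits in each library. Itgb1 is the tallest beta bar in both HSC libraries, Itgb2 in WT CLP, and the 3 beta bars of GRK6-/- CLP lie between 17.98 and 21.1.

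Set against their partners, the 3 beta 1 alpha chains Itga4, Itga5 and Itga6 summed to 0.627 (WT) and 0.773 (GRK6-/-) times Itgb1 in HSC, and to 1.59 (WT) and 1.39 (GRK6-/-) times in CLP. The sum for GRK6-/- HSC lacks Itga4. The ratio of Itgal to Itgb2, the chains of LFA-1, was 0.738 (WT) and 2.41 (GRK6-/-) in HSC, and 0.379 (WT) and 0.866 (GRK6-/-) in CLP, higher in the knockout library of each population. The ratio of Itga4 to Itgb7 was 1.14 in WT HSC, and 1.52 (WT) and 0.235 (GRK6-/-) in CLP. FPKM is scaled to transcript length, but cDNA primed at the poly(A) tail can miss the far part of long transcripts, and the part of this in the ratios was not tested.

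Selplg (Entrez Gene 20345, chr5:114267807-114280510, minus strand) had 55.7 (WT) and 72.4 (GRK6-/-) FPKM in HSC, and 161 (WT) and 104 (GRK6-/-) in CLP. Both CLP libraries lay above both HSC libraries. WT CLP was 2.89-fold above WT HSC (counting interval 2.60 to 3.22), and GRK6-/- CLP was 1.43-fold above GRK6-/- HSC (1.29 to 1.59).

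Cd44 (Entrez Gene 12505, chr2:102651298-102741822, minus strand) had 44.5 (WT) and 38.8 (GRK6-/-) FPKM in HSC, and 81.7 (WT) and 38.1 (GRK6-/-) in CLP. WT CLP was the high library, 2.15-fold above GRK6-/- CLP (counting interval 1.96 to 2.36). Cd44 has 14 annotated transcripts, and the single value per gene does not tell its variant exons apart.

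To ask whether loss of GRK6 went with a change in these genes, each GRK6-/- library was compared with WT as the log2 ratio of FPKM + 1, and a gene was counted at an absolute log2 ratio of at least 1. In HSC, 3 of 9 members were counted, where 37.4% of 11624 genes were (19.3% higher and 18.0% lower). Itga6 was higher (log2 ratio 1.49), Itgb2 was lower (-1.13), and Itga4 was counted as lower only through its missing row. Among genes at 1 FPKM or more in each library, 2 of 8 members were counted, where 32.0% of genes were. In CLP, 3 of 9 members were counted, where 50.0% of 11191 genes were (26.6% higher and 23.4% lower). Itga5 (1.20) and Itgb7 (2.22) were higher and Cd44 was lower (-1.08). Itgal and Itgb1 lay just inside the threshold, at 0.94 each. Among genes at 1 FPKM or more in each library, the background was 40.5%. The members were thus counted no more often than genes in general.

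**Figure D4:**
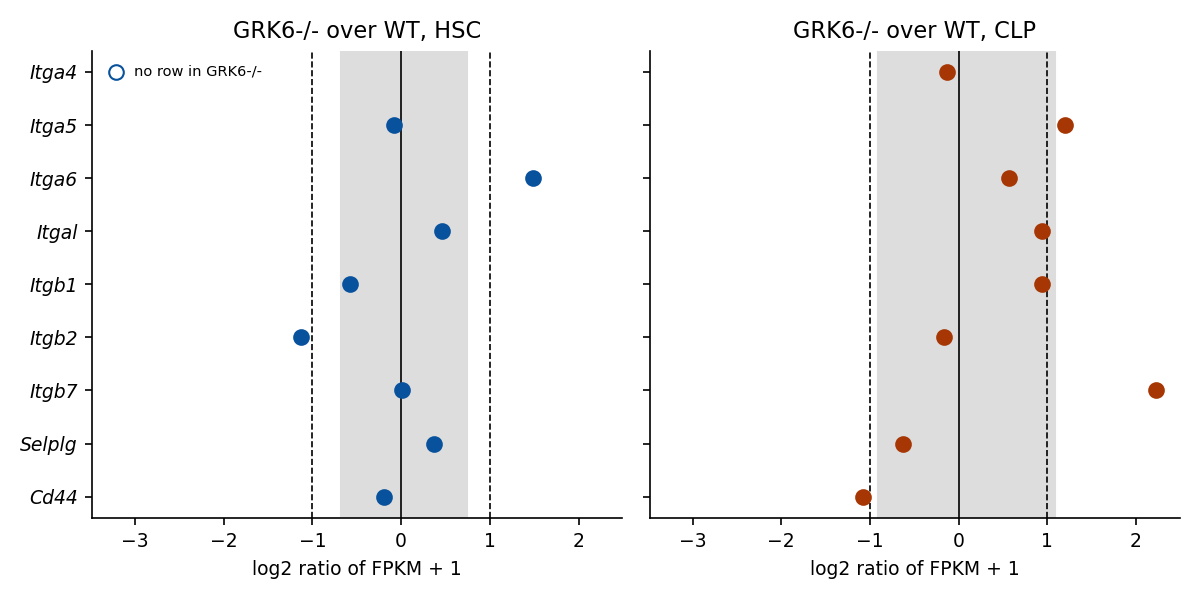
Log2 ratio of FPKM + 1, GRK6-/- over WT, for each gene in HSC (left) and CLP (right), with dashed lines at 2-fold and a grey band for the middle 50% of all genes. In HSC 1 gene with both values is past 2-fold on each side, Itga6 and Itgb2, and the open point is Itga4, whose place rests on the pseudocount; in CLP Itgb7 lies farthest out, at 2.22.

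The median log2 ratio of the members was -0.076 in HSC and 0.57 in CLP, against 0.048 and 0.051 over all genes. Their median absolute log2 ratio was 0.46 in HSC and 0.94 in CLP, against 0.72 and 0.9995 over all genes.

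Between the populations, 3 of 9 members were counted for WT CLP against WT HSC, where 46.5% of 11202 genes were (21.8% higher and 24.7% lower in CLP). For GRK6-/- CLP against GRK6-/- HSC, 3 of 9 were counted, where 45.6% of 11708 genes were (22.3% higher and 23.4% lower). Among genes at 1 FPKM or more in each library, 3 of 9 were counted in WT and 2 of 8 in GRK6-/-, against 39.0% and 38.6% of genes. In WT, Selplg was higher in CLP (log2 ratio 1.51), and Itgb1 (-2.05) and Itga5 (-1.10) were lower. In GRK6-/-, Itgb2 (1.20) and Itgb7 (1.29) were higher in CLP, and Itga4 was counted as higher through the row missing in HSC. These comparisons share libraries with the knockout comparisons and are not independent of them.

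A limma model of all 4 libraries with terms for genotype and population has 1 residual degree of freedom, which measures how far the knockout difference departs from being equal in both populations. Its standard errors and p-values also use variance borrowed from all genes, with 7.43 prior degrees of freedom. For genotype 0 of 9 members and 0 of 11230 genes (0.00%) had an adjusted p under 0.05 (limma, Benjamini-Hochberg over all genes), with 0 members and 500 genes at an unadjusted p under 0.05. The lowest adjusted p of a member was 0.999. The common log2 difference was 0.70 ± 0.93 (SE) for Itgal and 1.03 ± 0.94 for Itga6. For population 0 of 9 members and 1 of 11230 genes (0.00890%) passed, with 0 members and 608 genes at an unadjusted p under 0.05. That gene was Ly6d, a lymphoid progenitor marker, named after its value was seen, with no row in either HSC library and 1438 (WT) and 1051 (GRK6-/-) FPKM in CLP. The common difference was 1.01 ± 0.94 for Selplg and -1.30 ± 0.96 for Itgb1 (CLP minus HSC, limma adjusted p 0.952 and 0.938).

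Summed markers of other cell types also differed between the libraries. Of the sums in this paragraph, the erythroid sum alone was higher in both GRK6-/- libraries. The HSC marker sum given above was also higher in both, but in HSC its markers did not rise as a set. Their median log2 ratio in HSC was -0.62, with 2 of 9 at least 2-fold higher and 2 of 9 lower. Cd34, the largest of them, had 151 (WT) and 338 (GRK6-/-) FPKM in HSC. Erythroid markers, 7 of 10 with a row in GRK6-/- HSC and in GRK6-/- CLP and 6 of 10 in each WT library, summed to 338 (WT) and 1701 (GRK6-/-) FPKM in HSC, and to 154 (WT) and 18111 (GRK6-/-) in CLP, with Hba-a1, Hbb-b1 and Hbb-b2 without a row throughout. Hba-a2, an alpha globin gene, made up 17220 FPKM of the sum in GRK6-/- CLP, and without it the sums were 332 (WT) and 1648 (GRK6-/-) FPKM in HSC, and 137 (WT) and 891 (GRK6-/-) in CLP. B lineage markers summed to 41.9 (WT) and 35.5 (GRK6-/-) FPKM in HSC, with 1 of 8 listed in WT and 3 of 8 in GRK6-/-. Cd79b made up 41.9 (WT) and 34.8 (GRK6-/-) FPKM of these sums. With 7 of 8 listed in both CLP libraries, the B lineage markers summed to 239 FPKM in WT CLP and 1562 in GRK6-/- CLP. Pax5 had no row. Megakaryocyte markers, 3 to 5 of 6 with a row, summed to 150 (WT) and 13.1 (GRK6-/-) FPKM in HSC, and to 13.5 (WT) and 117 (GRK6-/-) in CLP, while Gp1bb had a row in GRK6-/- CLP alone and Ppbp in GRK6-/- HSC alone, at 2.20 FPKM. In GRK6-/- CLP, where the erythroid, B lineage and megakaryocyte sums were above WT, Itgb7, Itga5, Itgal, Itgb1 and Itga6 were also above WT. Cd44 and Selplg were below WT there, and Itga4 and Itgb2 differed within counting error. The part of these cell types in the values of the adhesion genes was not tested.

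The other genes of the adhesion pathways were counted by the same 2-fold threshold, which 37.4% of all genes passed in HSC and 50.0% in CLP. Of the other integrin subunits, 4 of 7 with a row in either HSC library were lower in GRK6-/- HSC and 0 higher, against 18.0% and 19.3% of all genes. Itgb3, the partner of Itga2b, lay just inside the threshold on the higher side, at 0.0587 (WT) and 1.10 (GRK6-/-) FPKM in HSC (log2 ratio 0.99). In CLP 3 of 8 were higher and 2 of 8 lower, against 26.6% and 23.4% of all genes. On this list, 2 of 7 in HSC and 2 of 8 in CLP were under 1 FPKM in both libraries and so could not pass. Itgam, the alpha chain of the myeloid integrin Mac-1, had 3.21 (WT) and 0.274 (GRK6-/-) FPKM in HSC, and 2.08 in WT CLP with no row in GRK6-/- CLP. Itgb5, a vitronectin receptor chain, was also lower in both, at 4.77 (WT) and 1.61 (GRK6-/-) FPKM in HSC, and 4.52 (WT) and 0.443 (GRK6-/-) in CLP. Itga2b, the platelet integrin chain, was 47.0 (WT) and 4.20 (GRK6-/-) FPKM in HSC, and 2.52 (WT) and 46.0 (GRK6-/-) in CLP. Itga2, a collagen receptor chain, had a row only in GRK6-/- CLP, at 30.4 FPKM.

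Of the genes that activate integrins or link them to actin, 2 of 24 were higher and 2 of 24 lower in GRK6-/- HSC, and 3 of 25 were higher and 3 of 25 lower in GRK6-/- CLP. Fermt3, the kindlin of blood cells, was higher in both, with 88.5 (WT) and 179 (GRK6-/-) FPKM in HSC, and 35.0 (WT) and 142 (GRK6-/-) in CLP. Tln1 (talin), which binds beta tails, had 320 (WT) and 15.9 (GRK6-/-) FPKM in HSC, and 19.7 (WT) and 207 (GRK6-/-) in CLP, so that its knockout difference had opposite directions in HSC and CLP. Ilk, a pseudokinase at integrin adhesions, had 12.4 (WT) and 82.8 (GRK6-/-) FPKM in HSC, and 40.5 (WT) and 20.2 (GRK6-/-) in CLP. Crkl, an adaptor, had 7.77 (WT) and 7.81 (GRK6-/-) FPKM in HSC, and 38.2 in WT CLP with no row in GRK6-/- CLP.

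**Figure D5:**
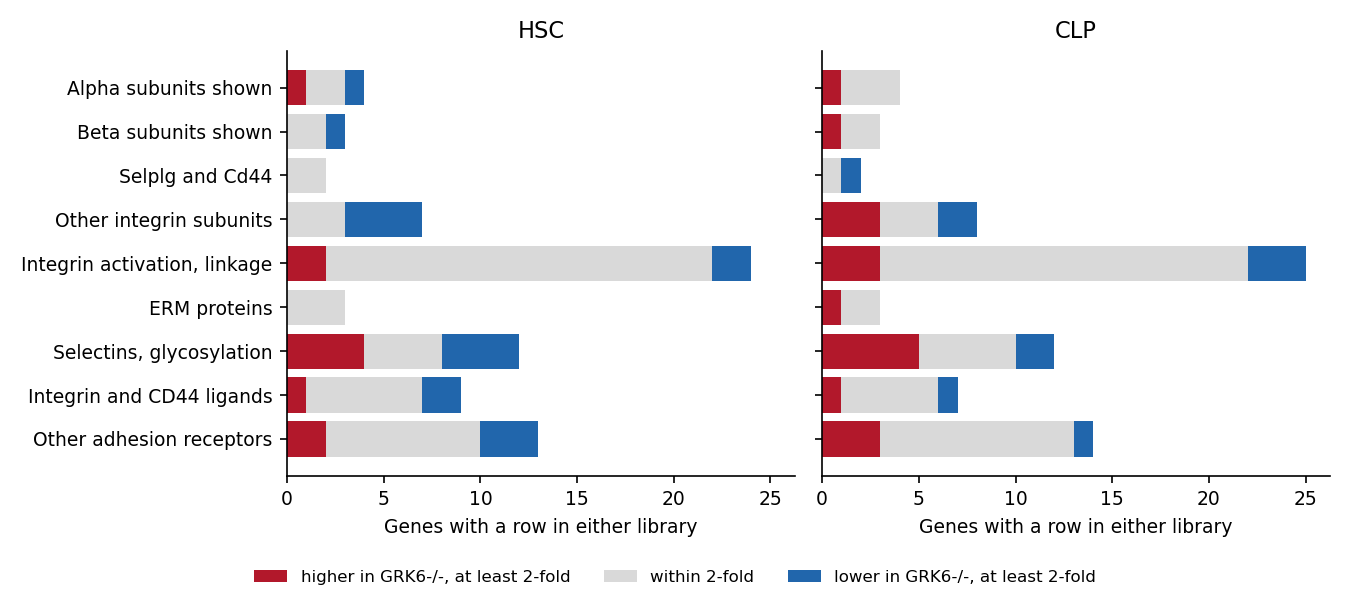
Number of genes of each adhesion list that were at least 2-fold higher, within 2-fold, or at least 2-fold lower in GRK6-/- than in WT, in HSC (left) and CLP (right), among genes with a row in either library. Of the integrin activation and linkage genes, 20 of 24 in HSC and 19 of 25 in CLP lay within 2-fold, including 5 in each that were under 1 FPKM in both libraries and so could not pass.

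The ERM proteins, which link CD44 and PSGL-1 to actin, had 0 of 3 past 2-fold in HSC and 1 of 3 in CLP. Rdx (radixin) had 26.8 (WT) and 37.8 (GRK6-/-) FPKM in HSC, and 23.9 (WT) and 91.8 (GRK6-/-) in CLP. Msn (moesin) lay between 45.9 and 59.3 FPKM in all libraries. Ezr (ezrin) had 26.6 (WT) and 22.6 (GRK6-/-) FPKM in HSC, and 97.6 (WT) and 57.8 (GRK6-/-) in CLP. Ezr and Rdx were each within 2-fold of WT in HSC.

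Among selectins and enzymes that glycosylate or sulfate their ligands, 4 of 12 were higher and 4 of 12 lower in GRK6-/- HSC, and 5 of 12 were higher and 2 of 12 lower in GRK6-/- CLP. Fut4, a fucosyltransferase for selectin ligands, was higher in both, at 0.283 (WT) and 3.68 (GRK6-/-) FPKM in HSC, and 0.0619 (WT) and 8.89 (GRK6-/-) in CLP. St3gal3, a sialyltransferase, was also higher in both, at 1.44 (WT) and 12.1 (GRK6-/-) FPKM in HSC, and 0.105 (WT) and 34.4 (GRK6-/-) in CLP. Gcnt1, which builds the core 2 branch on PSGL-1, had 8.004 (WT) and 9.27 (GRK6-/-) FPKM in HSC, and 0.196 (WT) and 11.9 (GRK6-/-) in CLP. For the 9 members, 1 fragment in WT CLP was estimated to be worth 0.0233 to 0.0881 FPKM. The WT CLP values of Fut4, St3gal3 and Gcnt1 lay near that limit. Tpst1, which sulfates tyrosines, had 24.0 (WT) and 2.05 (GRK6-/-) FPKM in HSC, and 2.05 (WT) and 15.1 (GRK6-/-) in CLP. On the same list, Fut7, Tpst2, B4galt1 and Selp were lower in both knockout libraries, Selp with no row in GRK6-/- CLP. Fut7 had 54.4 (WT) and 13.6 (GRK6-/-) FPKM in HSC, and 37.5 (WT) and 19.6 (GRK6-/-) in CLP. Tpst2 had 89.1 (WT) and 43.0 (GRK6-/-) FPKM in HSC, and 30.9 (WT) and 17.5 (GRK6-/-) in CLP. In CLP Fut7 and Tpst2 were within 2-fold, and B4galt1 was within 2-fold in both populations. Fut4, St3gal3, Gcnt1 and Tpst1 are named for the size of their differences, while Selplg, which carries the glycans, stayed within 2-fold of WT in both populations.

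Of the integrin and CD44 ligands, which marrow stroma and vessels mainly supply, 1 of 9 was higher and 2 of 9 lower in GRK6-/- HSC, and 1 of 7 was higher and 1 of 7 lower in GRK6-/- CLP. Of these, 5 of 9 in HSC and 3 of 7 in CLP were under 1 FPKM in both libraries and so could not pass. Vcam1, the ligand of VLA-4, had 14.8 (WT) and 0.384 (GRK6-/-) FPKM in HSC, and no row (WT) and 26.8 (GRK6-/-) in CLP. Icam2, a ligand of LFA-1, had 88.1 (WT) and 70.8 (GRK6-/-) FPKM in HSC, and 122 (WT) and 5.65 (GRK6-/-) in CLP.

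Of the other adhesion receptors, 2 of 13 were higher and 3 of 13 lower in GRK6-/- HSC, and 3 of 14 were higher and 1 of 14 lower in GRK6-/- CLP. F11r, a junctional adhesion molecule, had 11.6 (WT) and 0.858 (GRK6-/-) FPKM in HSC, and 9.19 (WT) and 10.9 (GRK6-/-) in CLP. Cd151, a tetraspanin that binds laminin receptors, had 6.87 (WT) and 23.5 (GRK6-/-) FPKM in HSC, and 7.88 (WT) and 12.6 (GRK6-/-) in CLP. Esam, an endothelial and stem cell adhesion molecule, had 8.04 (WT) and 12.5 (GRK6-/-) FPKM in HSC, and no row in WT CLP but 15.9 FPKM in GRK6-/- CLP. Pecam1 had 12.3 (WT) and 9.07 (GRK6-/-) FPKM in HSC, and 26.1 (WT) and 6.77 (GRK6-/-) in CLP.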

How the data were processed

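Gene expression in HSC and CLP of WT and GRK6-/- mice was taken from 4 RNA-seq libraries, 1 per population and genotype. The authors aligned reads to mm9 with the Tuxedo suite (TopHat 1.4.0 in the submitters' processing notes) and deposited FPKM, 1 value per gene and library, without counts or confidence bounds. Counting settings are not given in the sources used here. Rows with the same symbol were summed, and 333 of 12750 symbols or joint names were left out because a row named several genes, 3 of them on the lists used here. Log2 ratios used FPKM + 1, which understates the change of low genes. Fragments were estimated from steps in FPKM under 0.3 of genes with 1 transcript of at least 1500 bp, a step tested on simulated data, and may be too low. Intervals on them assume the longest transcript and cover counting error only, not amplification. limma 3.58.1 (R 4.3.3) was run on log2(FPKM + 1) of genes that reached 1 FPKM in any library. Values were handled with pandas 2.3.3 under Python 3.11.15, scipy 1.17.1 gave the intervals and matplotlib 3.10.9 the plots.

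The members, gene lists and tests were chosen with earlier results of these data known. The genes named were all members, Grk6, and from each other list the genes past 2-fold in the same direction in both populations and the 2 largest changes per knockout comparison among genes that reached 10 FPKM in either library. Itgb3, Fut7, Tpst2, B4galt1, Selp, Ly6d and the single markers of cell types were named after their values were seen. Alternatives were the pseudocount, a filter, rescaling, the largest row of a symbol, a 4-fold threshold and, chosen after seeing the data, leaving out Itga4.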

Additional observations from a re-analysis of the deposited data

Results flagged for a closer look

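The knockout difference had opposite signs in HSC and CLP for 3 of 9 members, in log2 ratios of FPKM + 1, GRK6-/- over WT, from 1 library per group. Itga5 had -0.076 in HSC and 1.20 in CLP, and its HSC value lies within counting error (0.778 to 1.15-fold). Itgb1, the shared beta chain of VLA-4 and VLA-5, had -0.57 in HSC and 0.94 in CLP. Selplg ran the other way, with 0.37 in HSC and -0.63 in CLP. The count rests on signs of small values, since Itgb7, at 0.014 in HSC and 2.22 in CLP, turned to -0.00034 in HSC with rescaling to the median. The differences between the populations were not tested, since there are no replicates, and 5195 of 10398 genes (50%) had opposite signs.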

How the results depend on the processing

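Of the members, 3 were past 2-fold in each of the 4 comparisons. With a 4-fold threshold 1 was past it in each comparison, which was Itga4 in those that hold GRK6-/- HSC, Itgb7 in GRK6-/- against WT CLP and Itgb1 in WT CLP against WT HSC, where 12.4% to 24.8% of all genes passed. A pseudocount of 5 gave 1 (Itga4) in GRK6-/- against WT HSC and 0 in GRK6-/- CLP against GRK6-/- HSC (19.4% and 26.9% of all genes), and a pseudocount of 0.1 gave 5 in GRK6-/- against WT CLP, since Itgal and Itgb1 then passed with log2 ratios of 1.01 each, as did 59.2% of all genes. No count moved by more than 1.5 times under either rescaling, with the highest row per symbol, with both libraries at 1 FPKM or more, or without Itga4, which left 2 in each comparison with GRK6-/- HSC. No log2 ratio past the threshold changed sign under these settings. The Itga4 value in HSC ran from -6.38 to -1.41 with pseudocounts of 0.1 and 5. limma called 0 members for either term with a pseudocount of 0.1, without a filter on low values or rescaled to the median, and the 1 gene called for population became 0 under each of these. No paired analysis was possible because no group had a second library, beyond the limma comparison of genotypes within population. The lowest member value, Itga6 in WT HSC, rests on about 19 fragments.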

Other observations

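Several adhesion genes and a megakaryocyte marker were high in WT HSC and GRK6-/- CLP and low in the other libraries. Itga2b had 47.0 and 46.0 FPKM in those libraries and 4.20 (GRK6-/- HSC) and 2.52 (WT CLP) in the others, and Tln1 had 320 and 207 against 15.9 and 19.7. Tpst1 (24.0 and 15.1 against 2.05 in both) and Vcam1 (14.8 and 26.8 against 0.384 and no row) had the same split, as did Gp9, a platelet glycoprotein (27.0 and 32.8 against 6.70 and 0.344). Itga2b and Gp9 are on the megakaryocyte marker list. Of the other 4 markers, Pf4 had 75.4 and 36.6 FPKM against no row (GRK6-/- HSC) and 10.7 (WT CLP). Gp1bb had a row only in GRK6-/- CLP, at 1.84 FPKM, Vwf was at most 0.114 FPKM, and Ppbp went the other way, with a row only in GRK6-/- HSC, at 2.20 FPKM. Of the adhesion lists, Itgb3, the partner of Itga2b, did not have this split, with 0.0587 and 2.80 FPKM against 1.10 (GRK6-/- HSC) and 5.43 (WT CLP). Nor did Selp, with 1.41 FPKM and no row against 1.14 and 5.71. All these genes were picked after their values were seen, and the share of all genes with this split was not counted. The part of megakaryocytic RNA in them was not tested.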
